A study of Xenopus tropicalis with 4 samples.

Results

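Notch genes were followed in the ectoderm of early Xenopus tropicalis gastrulae whose embryos had received a Foxh1 morpholino oligonucleotide (MO) or a control MO. The set held 10 gene symbols: the ligand genes dll1, dlc, jag1 and jag2, the receptor genes notch1 and notch2, the Fringe genes lfng and mfng, the feedback gene nrarp and the nuclear effector gene rbpj. Members were taken by exact symbol from the 4 gene tables. This gave 9 of the 10 among 28850 genes, and mfng was not analysed here. All 9 passed the filter on low counts, which left 13756 genes to test. The samples were animal cap explants, the ectodermal roof of the embryo, dissected at Nieuwkoop-Faber stage 10.5 from wild-type embryos kept at 25 °C. Foxh1 MO embryos were injected at the 1-cell stage with 22.5 ng of the foxh1 MO, and control MO embryos with 22.5 ng of a standard control MO. Each group held 2 libraries, numbered 1 and 2. The labels give neither the sequence nor the type of either MO, and whether libraries came from separate clutches is not stated. The p-values therefore set each difference between the groups only against the spread of these libraries, estimated in part from other genes. That spread may be technical.

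Notch signalling passes between touching cells. A Delta or Jagged (Serrate) ligand on one cell binds a Notch receptor on its neighbour, metalloproteases and gamma-secretase then cut the receptor, and its freed intracellular part joins RBPJ and Mastermind in the nucleus to switch on genes such as those of the Hes family. Fringe enzymes add sugars to the receptor and so change which ligands it answers to, and Nrarp, itself induced by the pathway, restrains the active complex. In the Xenopus ectoderm the pathway is known for lateral inhibition, by which cells that begin to form neurons or multiciliated cells keep their neighbours from doing the same.

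Expected counts, the read numbers estimated per gene, summed to 28567827 and 25632619 in Foxh1 MO 1 and 2, against 29750009 and 29800530 in control MO 1 and 2. The foxh1 transcript itself stood at 264 and 174 CPM (counts scaled to library size) in Foxh1 MO 1 and 2, against 79.3 and 71.2 CPM in control MO 1 and 2. A morpholino can block translation without lowering its transcript, so this level does not measure depletion, and directions are stated for the libraries as labelled. The ectodermal adhesion gene epcam was abundant in every library (1068 and 1121 CPM in Foxh1 MO, 1076 and 1067 CPM in control MO). The mesoderm gene tbxt (brachyury) lay between 2.84 and 5.24 CPM, while vegt, also among the mesoderm markers, lay between 46.0 and 63.8 CPM. A gene was called when its adjusted p was under 0.05 in edgeR's quasi-likelihood test with Benjamini-Hochberg adjustment over all tested genes. By that rule 574 genes rose and 560 fell, which is 8.24% of those tested. On TPM, the level per transcript length that RSEM gives, with 1 or 0.1 added, limma called 541 higher and 807 lower, or 567 higher and 872 lower.

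The delta gene dlc rose and the receptor gene notch2 fell in the Foxh1 MO libraries, while the other 7 members did not pass the test. Thus 2 of 9 members (22.2%) were called, 1 in each direction. Of all tested genes 8.24% were called, 4.17% higher and 4.07% lower. At an unadjusted p under 0.05 the same count of 2 was reached, beside 21.6% of all tested genes, so by that looser rule the members' share was close to the background. Foxh1 MO and control MO values were separate in CPM for 3 of the 9 (dlc, notch2 and lfng), against 50.8% of all tested genes. The median log2 fold change (Foxh1 MO over control MO) was 0.04 over the members and -0.0002 over all tested genes.

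Among the ligands, dlc had 24.8 and 25.4 CPM in Foxh1 MO 1 and 2, against 14.1 and 13.8 CPM in control MO 1 and 2. The libraries of each group lay close together and the groups were well apart. This gene, also known as X-Delta-2, encodes a Delta ligand that in Xenopus is best known from the segmenting mesoderm. It was 1.80-fold higher in Foxh1 MO (log2 fold change 0.85, SE 0.15, 95% interval 0.53 to 1.16, edgeR adjusted p = 0.00403). It was called with each library left out (log2 fold change 0.82 to 0.87) and under all 8 other settings tried (0.75 to 0.85). In bulk explants, a change in how many cells express a gene and a change in its RNA per cell cannot be told apart.

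The main Delta gene of primary neurogenesis, dll1, had 55.04 and 57.1 CPM in Foxh1 MO 1 and 2, against 40.4 and 55.4 CPM in control MO 1 and 2. Control MO 1 was low and control MO 2 lay inside the Foxh1 MO range, so the groups overlapped. The log2 fold change was 0.23 (SE 0.16, 95% interval -0.12 to 0.58, edgeR adjusted p = 0.473). It was 0.02 without control MO 1 and 0.47 without control MO 2. Within each library the dlc level in TPM was 0.505 and 0.499 of the dll1 level in Foxh1 MO 1 and 2, and 0.392 and 0.279 of it in control MO 1 and 2. The difference between the responses of these Delta genes was not tested.

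The Serrate-type ligand gene jag1 was nearly level, with 10.7 and 11.2 CPM in Foxh1 MO 1 and 2, against 11.1 and 10.5 CPM in control MO 1 and 2. Its log2 fold change was 0.03 (SE 0.16, edgeR adjusted p = 0.955), and the 95% interval of -0.32 to 0.37 did not reach the size seen for dlc. The sign turned negative on TPM and without control MO 2 or Foxh1 MO 2. The other Jagged gene, jag2, was barely detected, with 21 and 16 counts in Foxh1 MO 1 and 2, against 16 and 34 counts in control MO 1 and 2. The exact Poisson 95% intervals, which cover counting error only, were 13.0 to 32.1 and 9.15 to 26.0 counts in Foxh1 MO, and 9.15 to 26.0 and 23.5 to 47.5 counts in control MO. No change in jag2 was called, and its interval was wide (log2 fold change -0.30, 95% interval -1.31 to 0.71, edgeR adjusted p = 0.782). The log2 fold change of jag2 turned to 0.42 without control MO 2.

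**Figure D1:**
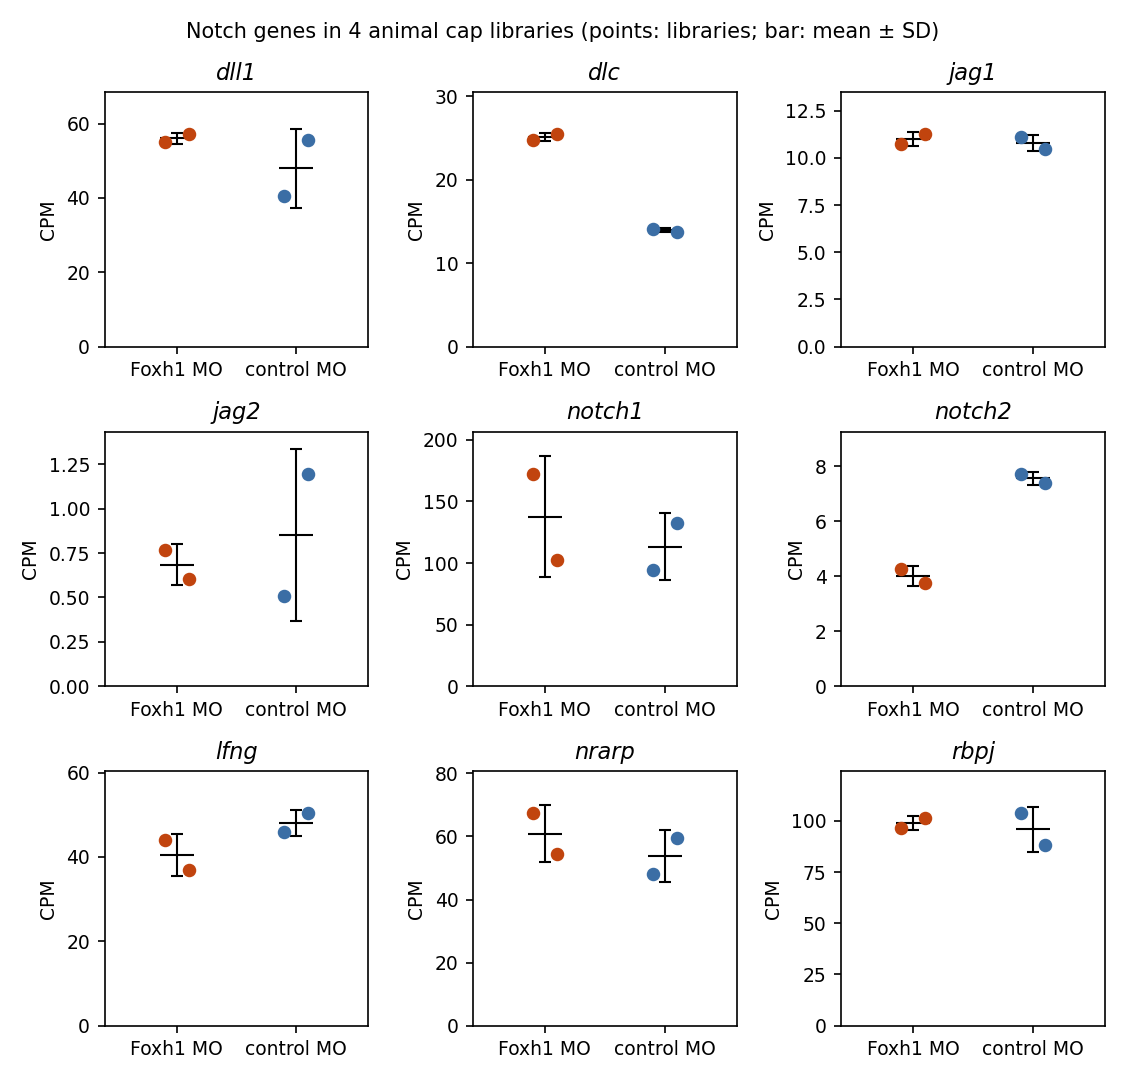
TMM-scaled CPM (vertical axis, from 0) of the 9 measured Notch genes in the Foxh1 MO and control MO libraries, one panel per gene, with each point a library and the bar the mean ± SD of 2 libraries. The groups stood apart in opposite directions for dlc (24.8 and 25.4 against 14.1 and 13.8 CPM) and notch2 (4.27 and 3.73 against 7.71 and 7.39 CPM), while notch1 spread from 103 to 172 CPM within Foxh1 MO.

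Of the receptors, notch2 was the one that fell. It had 4.27 and 3.73 CPM in Foxh1 MO 1 and 2, against 7.71 and 7.39 CPM in control MO 1 and 2, or 117 and 99 counts against 242 and 210. Both Foxh1 MO libraries were low and the groups did not overlap. The gene was 1.89-fold lower in Foxh1 MO (log2 fold change -0.91, SE 0.20, 95% interval -1.34 to -0.49, edgeR adjusted p = 0.0134). The call ended without Foxh1 MO 2 (log2 fold change -0.83, edgeR adjusted p = 0.0589) and on TPM with 0.1 added (-0.89, limma adjusted p = 0.0511). With each of the other libraries left out it was -1.02 to -0.88 and still called.

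The receptor gene notch1, known in Xenopus as Xotch, had 172 and 103 CPM in Foxh1 MO 1 and 2, against 94.0 and 133 CPM in control MO 1 and 2. Foxh1 MO 1 was the highest and Foxh1 MO 2 lay between the control MO libraries. The log2 fold change of 0.28 (SE 0.22, 95% interval -0.20 to 0.76) was not called (edgeR adjusted p = 0.524). Its direction depended on single libraries, since it was 0.60 and called without Foxh1 MO 2 (edgeR adjusted p = 0.0293) and -0.14 without Foxh1 MO 1. The receptor gene notch3, not a member, showed a like gap within the Foxh1 MO pair, with 276 and 165 CPM in Foxh1 MO 1 and 2, against 237 and 267 CPM in control MO 1 and 2 (log2 fold change -0.19, SE 0.20, edgeR adjusted p = 0.652).

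Both genes have long transcripts, 8708 bases for notch1 and 10670 for notch3. On the log2 CPM scale Foxh1 MO 1 exceeded Foxh1 MO 2 by 0.75 for notch1, 0.74 for notch3 and 0.19 for notch2, whose transcript is 8762 bases long. The median of that difference was 0.19 over the longest 10% of tested genes (1376 genes of 5672 bases or more) and -0.0035 over all tested genes. Of the other members, rbpj (7213 bases) and jag1 (6284 bases) both differed by -0.07 in the Foxh1 MO pair. The barely detected jag2 (5629 bases) differed by 0.31. The shorter lfng (1380 bases) and nrarp (893 bases) differed by 0.25 and 0.30, and dll1 and dlc by -0.05 and -0.04. In the control MO pair the medians were 0.01 and -0.02, with -0.49 for notch1, -0.17 for notch3 and 0.06 for notch2. The part of transcript length in the notch1 spread was not tested.

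Of the modulators, lfng, which encodes Lunatic fringe, had 43.9 and 36.9 CPM in Foxh1 MO 1 and 2, against 45.8 and 50.3 CPM in control MO 1 and 2. Both Foxh1 MO libraries lay below both control MO libraries, by a narrow margin in the nearest pair. The difference did not pass (log2 fold change -0.25, SE 0.15, 95% interval -0.57 to 0.06, edgeR adjusted p = 0.360), and it was -0.38 to -0.14 with each library left out. The related Fringe gene rfng, of the maturation list, had 33.1 and 37.5 CPM in Foxh1 MO, against 29.1 and 26.5 CPM in control MO (log2 fold change 0.34, edgeR adjusted p = 0.180). In TPM, lfng stood at 3.54 and 2.61 times rfng in Foxh1 MO 1 and 2, and at 4.22 and 5.02 times in control MO 1 and 2. This ratio was not tested, and rfng was chosen after its values were seen.

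The feedback gene nrarp had 67.3 and 54.5 CPM in Foxh1 MO 1 and 2, against 48.0 and 59.5 CPM in control MO 1 and 2. The groups overlapped, with Foxh1 MO 2 between the control MO libraries. Its log2 fold change was 0.18 (SE 0.16, 95% interval -0.16 to 0.53, edgeR adjusted p = 0.578), and 0.02 to 0.34 with each library left out. The gene rbpj, whose protein binds DNA for the pathway and represses or activates its targets according to its partners, had 96.4 and 101 CPM in Foxh1 MO 1 and 2, against 104 and 88.05 CPM in control MO 1 and 2. Both Foxh1 MO values lay inside the control MO range. Its log2 fold change was 0.04 (SE 0.14, 95% interval -0.26 to 0.35, edgeR adjusted p = 0.902), with -0.07 to 0.17 when each library was left out. Of the members, rbpj and jag2 had more than 1 transcript in the tables (3 and 2). The mean rbpj transcript length estimated by the authors' RSEM was 7212 and 6937 bases in Foxh1 MO 1 and 2, and 8033 and 6669 bases in control MO 1 and 2. Both Foxh1 MO lengths thus lay between those of the control MO libraries.

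Levels per transcript length spanned a wide range. In Foxh1 MO the order of mean TPM was nrarp (198 ± 26.3), lfng (75.7 ± 7.74), dll1 (38.05 ± 1.92), notch1 (34.9 ± 11.6), rbpj (31.3 ± 2.82), dlc (19.1 ± 0.813), jag1 (3.92 ± 0.226), notch2 (1.01 ± 0.0707) and jag2 (0.270 ± 0.0424). In control MO it was nrarp (179 ± 12.5), lfng (92.7 ± 0.559), dll1 (33.2 ± 5.35), rbpj (29.9 ± 1.16), notch1 (29.5 ± 5.38), dlc (10.9 ± 0.870), jag1 (3.97 ± 0.396), notch2 (1.97 ± 0.177) and jag2 (0.350 ± 0.184), each as mean TPM ± SD of n = 2 libraries. The values of dll1, rbpj and notch1 overlapped in control MO, so their order is not resolved there. In Foxh1 MO dll1 lay above rbpj and notch1 overlapped both. All other neighbours in either order were separate in both libraries. The feedback gene nrarp exceeded 94.6% of tested genes in mean TPM in Foxh1 MO and 93.9% in control MO, while dlc stood above 54.3% of them in Foxh1 MO and 42.7% in control MO.

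**Figure D2:**
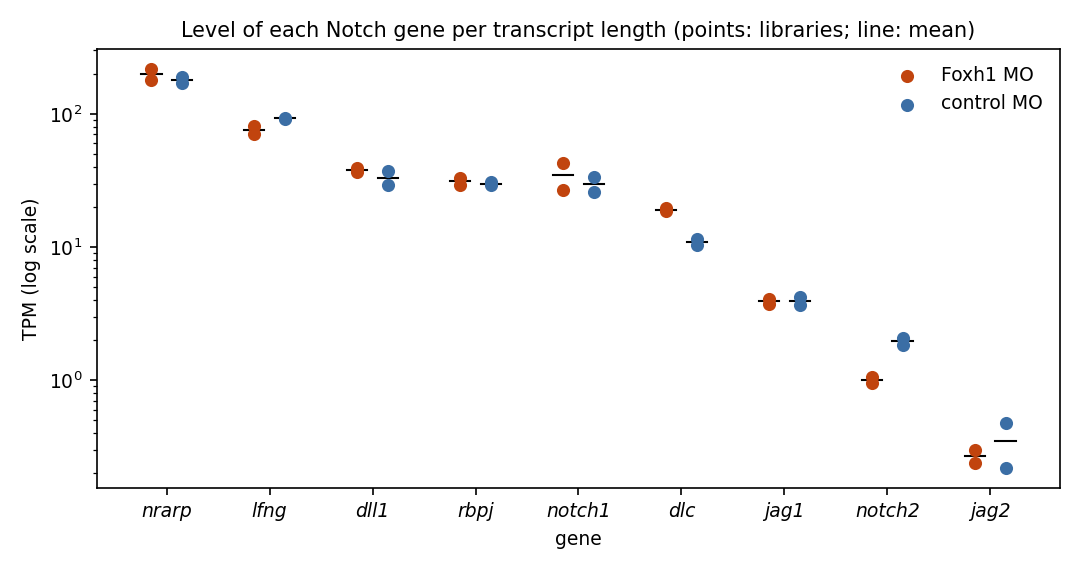
TPM on a log scale (vertical axis) for the 9 measured Notch genes, ordered by their control MO mean, with Foxh1 MO on the left and control MO on the right of each gene, points for libraries and a line for the mean. The feedback gene nrarp (198 TPM in Foxh1 MO, 179 TPM in control MO) stood at the top and jag2 (0.270 and 0.350 TPM) at the bottom.

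The make-up of each class can be read from the same TPM values. Of the summed TPM of the 4 ligand genes, dlc made up 31.2% and 31.0% in Foxh1 MO 1 and 2, against 25.4% and 20.0% in control MO 1 and 2. The share of dll1 was 61.9% and 62.2% in Foxh1 MO, against 64.8% and 71.9% in control MO, so Delta genes held most ligand transcripts in every library. The summed ligand level was 59.3 and 63.4 TPM in Foxh1 MO 1 and 2, against 45.5 and 51.5 TPM in control MO 1 and 2. Among the receptors notch3 and notch1 held nearly all transcripts. The summed TPM of notch1 to notch4 was 100 and 62.4 in Foxh1 MO 1 and 2, against 80.3 and 89.6 in control MO 1 and 2. The groups thus overlapped in summed receptor level. The notch3 share was 55.9% and 55.7% in Foxh1 MO, against 65.3% and 60.8% in control MO. The notch1 share was 43.0% and 42.8% in Foxh1 MO, against 32.0% and 37.2% in control MO, and that of notch2 was 1.06% and 1.54% in Foxh1 MO, against 2.60% and 2.05% in control MO. No test was made of these shares. The receptor gene notch4 had 0 counts in each Foxh1 MO library and 7 and 2 counts in control MO 1 and 2, too few to test.

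**Figure D3:**
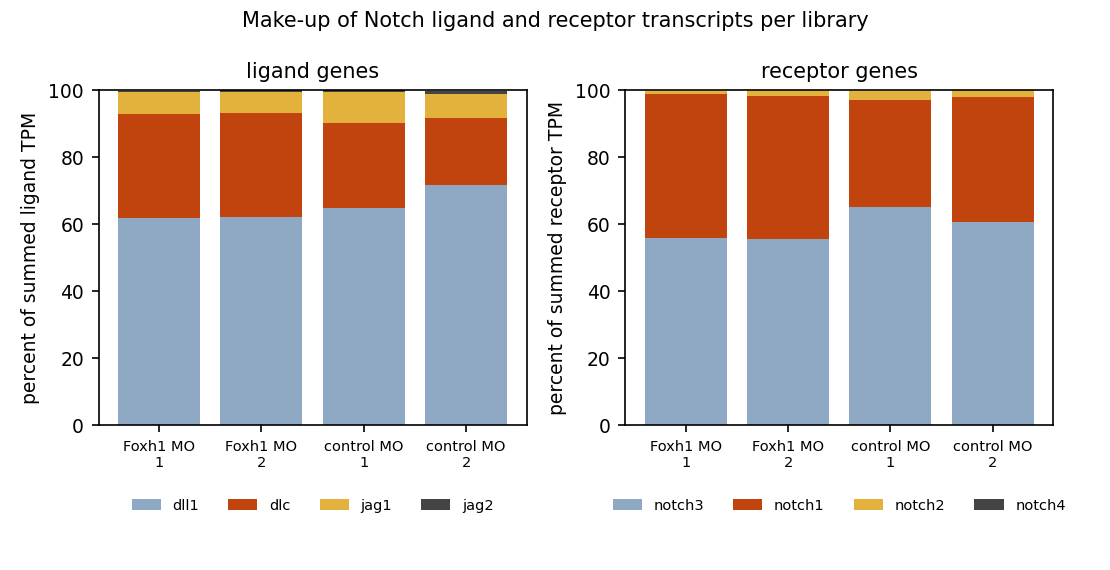
Percent of the summed TPM (vertical axis) held by each Notch ligand gene (left) and receptor gene (right) in the 4 libraries, with Foxh1 MO 1 and 2 before control MO 1 and 2. The dlc share was 31.2% and 31.0% in Foxh1 MO and 25.4% and 20.0% in control MO; notch2 and notch4 form a thin top layer.

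The authors' deposited table, fitted by them with edgeR, gave log2 fold changes of 0.85 for dlc (false discovery rate 0.00133) and -0.92 for notch2 (0.00431). Its values for notch1 (0.2546) and jag2 (-0.2394) differed from those of the main test here (0.2806 and -0.3000). They lay nearer to a fit with the replicate number as an added term (0.2543 and -0.2396). In the authors' deposited table no other measured member had a false discovery rate under 0.05, the next being 0.538 for notch1 and for lfng. With each library left out, dlc and notch2 kept their sign, and so did dll1, lfng and nrarp.

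**Figure D4:**
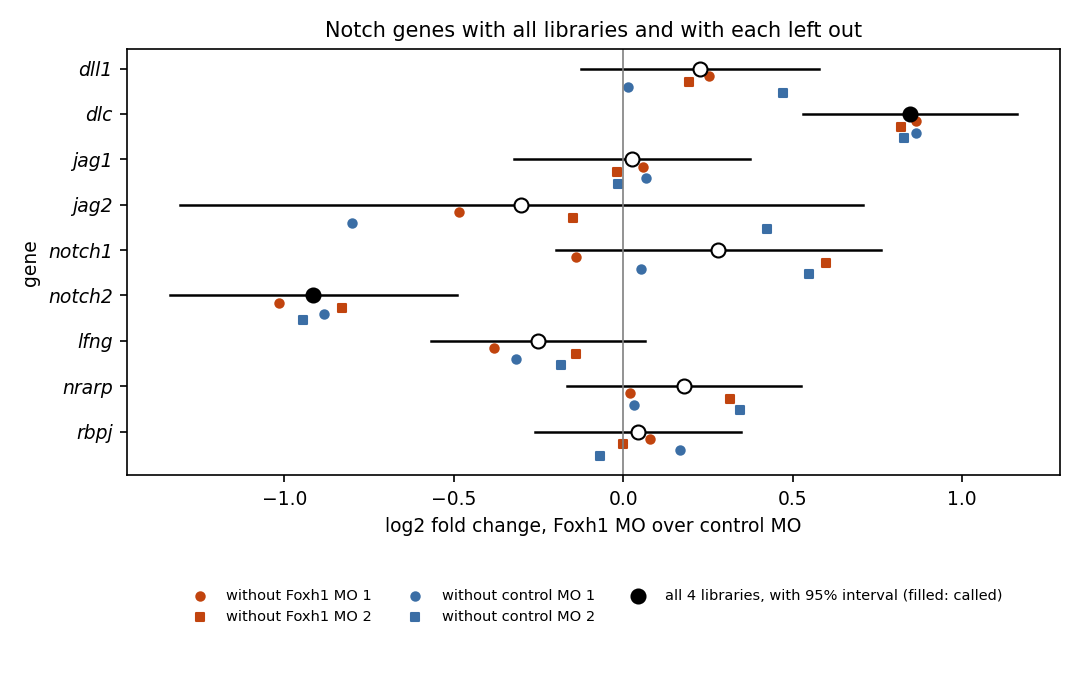
Log2 fold change of Foxh1 MO over control MO (horizontal axis) for each of the 9 measured Notch genes with all 4 libraries (black, with the 95% interval, filled where called) and with 1 library left out (coloured points). The interval lay above 0 for dlc (0.53 to 1.16) and below 0 for notch2 (-1.34 to -0.49), and the points of notch1 ran from -0.14 to 0.60.

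Other genes of the pathway were read from 5 lists with 71 genes in the tables, of which 62 were tested. Of these 5 rose, 3 fell and 54 did not pass, so 12.9% were called, against 8.24% of all tested genes. The 8 calls were not spread evenly. The Hes and Hey genes held 6 of them (17 tested), the trafficking list 2 (14 tested), and no other list held any. On TPM with 1 added limma called 5 higher and 5 lower. The median log2 fold change was -0.01. Without Foxh1 MO 1 more of these genes were called in each direction, but so were more of all tested genes. The log2 fold change of notch3 was then -0.61.

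In the list of ligand endocytosis and trafficking, epn2 rose and numbl fell, with 12 of 14 tested genes not called. The share called was 14.3%, against 8.24% of all tested genes. Without Foxh1 MO 1 more genes of this list were called in each direction, but so were more of all tested genes. The gene epn2 encodes an epsin, an adaptor of the endocytosis through which ligands pull on Notch, and had 23.7 and 14.2 CPM in Foxh1 MO 1 and 2, against 8.86 and 10.1 CPM in control MO 1 and 2 (log2 fold change 1.00, SE 0.22, edgeR adjusted p = 0.0149). Foxh1 MO 1 was the high library, and without it the log2 fold change was 0.59. The gene numbl encodes a relative of Numb, an endocytic inhibitor of Notch, and had 4.16 and 3.77 CPM in Foxh1 MO, against 8.06 and 9.50 CPM in control MO (log2 fold change -1.14, SE 0.19, edgeR adjusted p = 0.00366). The gene numb itself was more abundant than numbl and leaned the other way without being called. It had 99.2 and 100 CPM in Foxh1 MO, against 76.6 and 72.5 CPM in control MO (log2 fold change 0.42, edgeR adjusted p = 0.0760). The ubiquitin ligase gene mib1, needed for ligand activity, and the epsin gene epn1 had log2 fold changes of 0.13 and 0.02 and were not called.

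None of the 11 tested genes of receptor maturation and cleavage was called by edgeR, DESeq2 or limma-voom. Of the 11, 2 had an unadjusted p under 0.05 (18.2%, against 21.6% of all tested genes). The metalloprotease gene adam10 had 209 and 213 CPM in Foxh1 MO, against 206 and 186 CPM in control MO, and the gamma-secretase gene ncstn (nicastrin) had a log2 fold change of -0.28. Without Foxh1 MO 1 that of ncstn was -0.60 and called (edgeR adjusted p = 0.00129). None of the 18 tested genes of the nuclear complex and its corepressors was called by these 3 tools either, and 5 had an unadjusted p under 0.05 (27.8%, against 21.6% of all tested genes). The corepressor gene ncor1 and the histone deacetylase gene hdac1 had log2 fold changes of -0.31 and 0.04. Without Foxh1 MO 1 the log2 fold change of ncor1 was -0.62. Some nuclear genes were then called, most of them lower, but more of all tested genes were called as well. Without Foxh1 MO 2 there were 2 called higher and 0 lower, and without control MO 1 there was 1 lower. Of the other ligand and receptor genes, notch3 and dner were tested and neither was called by any of the 3 tools or had an unadjusted p under 0.05. The endothelial Delta gene dll4 had 5 and 3 counts in Foxh1 MO, against 9 and 7 in control MO, and was untested, as were dlk1 and dlk2.

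The Hes and Hey genes, a family of transcriptional repressors with many Notch targets, moved in both directions. Of 17 tested, 4 rose, 2 fell and 11 did not pass (35.3% called, against 8.24% of all tested genes), and their median log2 fold change was 0.25. An unadjusted p under 0.05 was reached by 11 of the 17 (64.7%), against 21.6% of all tested genes. With each library left out 4 to 6 were called higher and 1 to 2 lower. The genes that rose were hes5.5 (3.28 and 3.43 CPM in Foxh1 MO, against 0.829 and 0.915 CPM in control MO), hes5.7 (3.07 and 3.36 CPM, against 1.15 and 0.457 CPM), hes5.8 (6.79 and 8.07 CPM, against 3.25 and 2.22 CPM) and hes7.2 (13.4 and 12.0 CPM, against 6.34 and 6.93 CPM). Their log2 fold changes were 1.94, 1.98, 1.44 and 0.94, with edgeR adjusted p of 0.00163, 0.00630, 0.00291 and 0.00536. That of hes5.7 was 1.48 without control MO 2 and 2.80 without control MO 1. The hes5 genes are a family of related copies in Xenopus, and whether reads were shared among them in the authors' estimates was not tested.

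Of those that fell, hes7.1 had 5.77 and 6.86 CPM in Foxh1 MO, against 14.3 and 17.03 CPM in control MO (log2 fold change -1.31, SE 0.18, edgeR adjusted p = 0.000908). The gene hes2 had 0.584 and 0.528 CPM in Foxh1 MO, against 1.53 and 1.302 CPM in control MO (log2 fold change -1.34, edgeR adjusted p = 0.0457). Its call was lost whichever library was left out (edgeR adjusted p = 0.0506 to 0.157), while the log2 fold change stayed at -1.45 to -1.22. It was also not called by DESeq2 (-1.36, adjusted p = 0.177) or limma-voom (-1.32, adjusted p = 0.0518). The most abundant gene of the list, hes4, had 85.0 and 72.5 CPM in Foxh1 MO, against 69.2 and 81.0 CPM in control MO, and hes6.1 had 45.8 and 45.2 CPM, against 31.9 and 33.7 CPM (edgeR adjusted p = 0.856 and 0.0512, not called). The genes hes7.1 and hes7.2 thus moved in opposite directions, while nrarp and hes4 overlapped between the groups.

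**Figure D5:**
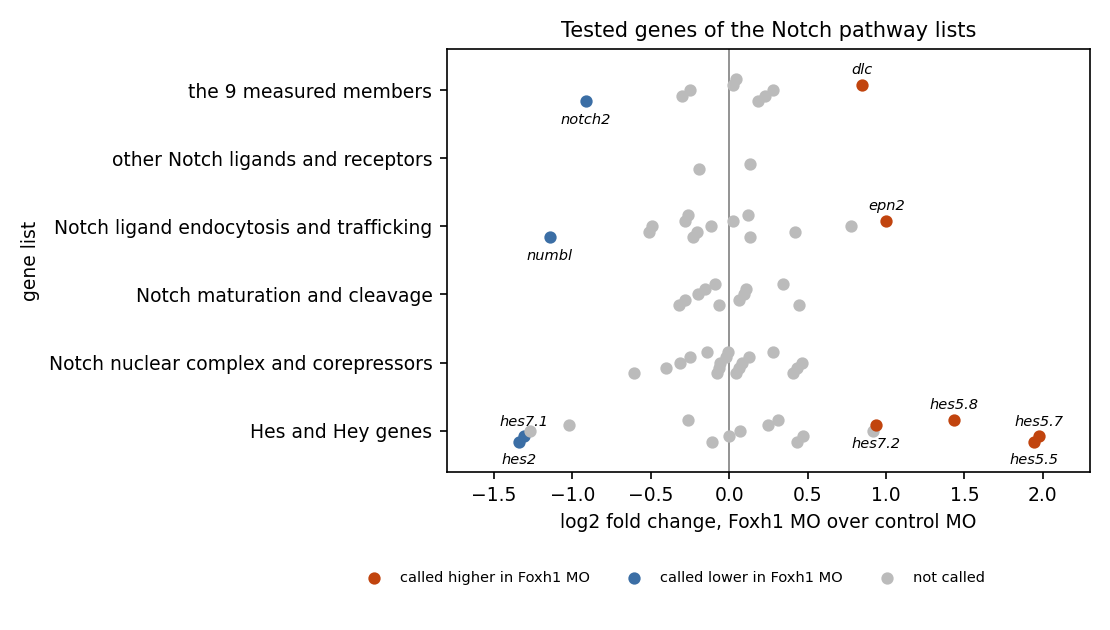
Log2 fold change of Foxh1 MO over control MO (horizontal axis) for the tested genes of the members and of the 5 other Notch pathway lists (rows), coloured where called higher or lower. Called genes lie in the members, in the trafficking list and among the Hes and Hey genes (4 higher and 2 lower of 17), and the other 3 lists show none.

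Markers of cell types that an explant could hold were read beside these values, where 8.24% of all tested genes were called. The 18 mesoderm markers summed to 83.6 and 87.5 CPM in Foxh1 MO 1 and 2, against 93.1 and 120 CPM in control MO 1 and 2. Most of that sum was vegt (46.0 and 51.4 CPM in Foxh1 MO, against 51.3 and 63.8 CPM in control MO). The gene vegt was not called (edgeR adjusted p = 0.403). Of the 13 tested mesoderm markers 1 rose (cdx4) and 4 fell (first pcdh8 and evx1). With each library left out 0 to 1 was called higher and 1 to 4 lower. The call of cdx4 ended without control MO 1 (edgeR adjusted p = 0.122) or Foxh1 MO 2 (0.0578) and that of evx1 without Foxh1 MO 2 (0.0861), where 1 mesoderm marker was still called lower. The mesoderm marker tbx6 had 1.46 and 1.21 CPM in Foxh1 MO, against 0.829 and 0.598 CPM in control MO (edgeR adjusted p = 0.180), and the muscle genes myf5 and myod1 had 1 to 13 counts per library.

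Of 7 tested organizer markers 5 fell (first chrd.1 and admp), and 5 were called lower with each library left out. The organizer and notochord gene not was called higher, but not without control MO 1 (edgeR adjusted p = 0.0581), control MO 2 (0.0717) or Foxh1 MO 1 (log2 fold change 0.39 in place of 0.66, adjusted p = 0.0680). It held most of the list's summed level of 123 and 88.6 CPM in Foxh1 MO, against 86.2 and 89.6 CPM in control MO. Without it the other 11 genes summed to 11.6 and 9.5 CPM in Foxh1 MO, against 25.6 and 29.3 CPM in control MO. The largest part of that sum was otx2, with 8.03 and 6.60 CPM in Foxh1 MO, against 13.0 and 14.7 CPM in control MO. Of 10 tested endoderm markers 1 rose (darmin) and 2 fell (mix1 and sox17b.1), with sums of 19.7 and 20.9 CPM in Foxh1 MO, against 25.9 and 32.5 CPM in control MO, and bix1.1 had 0 counts in all libraries. The number called lower was 4 without control MO 1 and 1 without Foxh1 MO 2, where sox17b.1 was lost (edgeR adjusted p = 0.0649; DESeq2 0.0674 with all libraries). The number called higher was 2 without control MO 2.

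Of 14 tested neural plate and proneural markers 2 rose (myt1 and neurog1) and 8 fell (irx1 among them), with sums of 324 and 260 CPM in Foxh1 MO, against 481 and 505 CPM in control MO. With each library left out 2 to 3 were higher and 6 to 8 lower. Of 13 tested multiciliated cell and ionocyte markers 1 was called higher (foxi1) and 2 lower (foxj1 and tp73). Of the 13, 6 had a positive and 7 a negative log2 fold change. The list summed to 384 and 398 CPM in Foxh1 MO, against 416 and 448 CPM in control MO. Most of that sum was rfx2 (202 and 212 CPM in Foxh1 MO, against 261 and 254 CPM in control MO), which was not called (edgeR adjusted p = 0.179). The call of tp73 rested on control MO 2, with 0.584 and 0.905 CPM in Foxh1 MO 1 and 2, against 1.34 and 6.79 CPM in control MO 1 and 2. Its log2 fold change was -2.43, and -0.85 without control MO 2 (edgeR adjusted p = 0.405), and it was not called by DESeq2 (0.196) or limma-voom (0.131). That of foxi1 was 0.90, and 0.55 and not called without Foxh1 MO 2 (edgeR adjusted p = 0.0714). With each library left out 0 to 2 of this list were higher and 1 to 3 lower. Of 13 tested ectoderm markers 4 were called higher (first grhl1 and tfap2a) and 3 lower (first sox3 and foxi2). The gene foxi1 is on this list too and was among the 4. Without control MO 1 there were 2 higher and 2 lower, with tfap2a and foxi2 lost (edgeR adjusted p = 0.104 and 0.0737). Without control MO 2 there were 4 higher and 0 lower, with sox3 and foxi2 lost (0.192 and 0.116), and without Foxh1 MO 2 there were 3 higher and 2 lower. Calls of the keratin markers ended as well, for krt70 (log2 fold change 0.65) without control MO 1 (0.57). For krt12.4 (-0.97, called lower) this was so without control MO 2 (-0.76) or Foxh1 MO 2 (-0.88). The part of these cell types in the values of dlc and notch2 was not tested.

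The tested genes whose log2 CPM pattern over the 4 libraries lay nearest to dlc, by Euclidean distance after centring, were c15orf39 (0.0487), ints12 (0.0535) and ccnl2 (0.0577). Nearest to notch2 were nell1 (0.0422), zbtb25 (0.0749) and sbk1l (0.0756). With 4 libraries and 11565 genes to choose from, such likeness describes these libraries only. In the RefSeq gene order of assembly UCB_Xtro_10.0, the protein-coding neighbours of dlc are timm50 and adad2, with log2 fold changes of 0.01 and 0.20 (edgeR adjusted p = 0.970 and 0.512). Those of notch2 are ro60 and imp3, with -0.09 and 0.09 (edgeR adjusted p = 0.853 and 0.789).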

How the data were processed

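Poly(A) RNA of 4 animal cap samples was sequenced after Trizol extraction and NEBNext Ultra II library preparation, per the labels' protocols. The deposited gene tables gave, per the file headers, the authors' RSEM expected count for each gene, with its TPM, FPKM (not tested) and length. The authors' deposited comparison table gave a log2 fold change, an F score and a p-value, with its false discovery rate. The submitters' processing notes name STAR 2.7.3a and RSEM 1.3.3, beside R 4.1.2 and edgeR 3.36.0. Genome build and strand setting are not given in the sources used here.

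Expected counts were rounded to whole numbers. The test was the quasi-likelihood F test of edgeR 4.0.16 (R 4.3.3) on group alone, after filterByExpr (minimum count 10, total 15) and TMM scaling, with 2 residual and 10.5 prior degrees of freedom. The SE was the size of the log2 fold change over the square root of F, and 95% intervals used the t distribution. Counts of any 2 libraries differed far beyond sampling noise (chi-square 38.8 to 77.2 per degree of freedom). Alternatives were upper-quartile factors, DESeq2 1.42.0, no filter, 1 CPM in 2 libraries, limma 3.58.1 (voom, or log2 TPM with 1 or 0.1 added), a replicate block, leaving out each library, and thresholds of 0.1 and 0.01. Members and lists were chosen with earlier results of these data known. Named genes were all members, foxh1, the called genes of each pathway list with its 2 most abundant uncalled ones, up to 2 called markers per direction, and the 3 genes nearest in pattern to each called member. Others (rfng, notch4, dll4, dlk1, dlk2, epcam, tbxt, vegt, tbx6, myf5, myod1, bix1.1 and gene neighbours) were chosen after their values were seen. So were numb, rfx2, otx2, krt70 and krt12.4. One marker named by this rule is not reported here. No sequence was used here. Columns of other samples numbered 0.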

Additional observations from a re-analysis of the deposited data

How the results depend on the processing

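Of the 107 values of members' log2 fold changes under alternatives, 96 kept their direction and their side of the threshold. The sign reversed for jag1 on TPM with 1 added (-0.0131) or 0.1 added (-0.0156); with each library left out jag1 ran from -0.0172 to 0.0670, jag2 from -0.80 to 0.42, notch1 from -0.14 to 0.60 and rbpj from -0.0677 to 0.1668, all with both signs. Members called higher numbered 1 to 2 and called lower 0 to 1 with each library left out; members called lower numbered 0 on TPM with 0.1 added and 0 at a threshold of 0.01. Other pathway genes called higher numbered 10 at a threshold of 0.1 and 5 to 9 with each library left out. Those called lower numbered 6 with upper-quartile factors, 6 with no filter, 5 and 6 on TPM with 1 and 0.1 added, 5 at 0.1, and 2 to 11 with each library left out. Over all genes, 874 were higher at 0.1, 210 higher and 220 lower at 0.01, 862 lower with no filter and 872 lower on TPM with 0.1 added; with each library left out 387 to 855 were higher and 369 (without Foxh1 MO 2) to 1501 (without Foxh1 MO 1) were lower. Causes were not tested. Deviations of same-numbered libraries correlated at r = -0.08 across genes, and the main test did not take the numbers as pairs. With 2 libraries per group this correlation cannot show whether same-numbered libraries belong together. With the replicate number as a block 546 genes were higher and 699 lower. In that fit dlc and notch2 stayed called (edgeR adjusted p = 0.000924 and 0.00432), and 5 other pathway genes were higher and 4 lower. Where a group was reduced to 1 library, that library was assumed to vary like those of the other group. Counts were low for jag2, notch4 and dll4.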
